A study of Drosophila melanogaster with 2 samples.

Results

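The genes described are 10 selector and co-selector factors of wing and appendage identity: hth, exd, Dll, dac, ct, bi, salm, vg, sd and nub, out of 13968 protein-coding genes of the Ensembl BDGP6 annotation. They were taken by name, and a peak belongs to one of them when its summit lies inside the gene or when that gene has the nearest protein-coding start site. The peaks come from chromatin immunoprecipitation with sequencing (ChIP-seq) of the LIM homeodomain factor Apterous in Drosophila melanogaster. There was 1 group, with 2 biological replicates: whole embryos aged 0 to 24 h of the ap-GFP strain, which carries an ap-eGFP fusion, precipitated with an antibody against GFP. No untagged flies and no control immunoprecipitation were analysed here. Every embryonic cell type is mixed in each library, so binding in many cells and stronger binding in few cells cannot be told apart. Positions are on dm6, the read depth is unknown, and signals are those of the authors' peak lists, in units that the sources used here do not name.

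A selector gene encodes a transcription factor that fixes the identity of a body region or appendage. Homothorax, the hth product, is a TALE homeodomain protein that brings its partner Extradenticle, the exd product, into the nucleus, and the pair acts in trunk, proximal limb and antenna. Distal-less (Dll) specifies distal limb and dachshund (dac) the intermediate leg, while cut (ct), a homeodomain factor, acts at the wing margin and in external sense organs. The T-box gene bi (optomotor-blind) and the zinc finger gene salm (spalt major) respond to Dpp signalling in the wing. Vestigial (vg) and its TEAD-type DNA-binding partner Scalloped (sd) together give wing fate, and nubbin (nub), a POU factor, marks the wing blade. Apterous itself gives the dorsal compartment of the wing its identity, and in the embryo it acts in neurons and muscles.

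The reference sequence at the summits that carry these results is given here from RefSeq release 6, whose chromosome lengths are those of dm6. Each window holds 101 bases, with the summit as the middle base, and is read 5′ to 3′ on the plus strand. The windows are the strongest peaks of hth, bi and ct, the single conservative peaks of dac and salm, the less strict peak of sd, and the less strict peak at hth that alone held the LIM homeodomain core TAATTA within 50 bp of its summit. Capitals mark every match, on either strand, to the 10 motifs searched, which are named with the motif results.
hth intron 3, chr3R:10597717-10597817: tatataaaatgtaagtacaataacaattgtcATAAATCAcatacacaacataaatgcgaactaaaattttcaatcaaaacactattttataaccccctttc
hth intron 7, chr3R:10560713-10560813: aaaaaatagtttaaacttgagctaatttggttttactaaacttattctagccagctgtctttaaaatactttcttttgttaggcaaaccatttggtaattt
hth upstream, less strict, chr3R:10641733-10641833: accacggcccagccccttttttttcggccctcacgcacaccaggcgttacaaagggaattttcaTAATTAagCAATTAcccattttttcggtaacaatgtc
bi intron 2, chrX:4446258-4446358: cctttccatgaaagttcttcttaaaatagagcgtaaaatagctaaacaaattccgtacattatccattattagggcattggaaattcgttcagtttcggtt
ct intron 3, chrX:7651731-7651831: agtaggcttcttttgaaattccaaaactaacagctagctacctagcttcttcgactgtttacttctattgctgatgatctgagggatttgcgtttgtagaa
dac upstream, chr2L:16486490-16486590: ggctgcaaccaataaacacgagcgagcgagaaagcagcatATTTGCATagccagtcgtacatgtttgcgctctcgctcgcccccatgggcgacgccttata
salm upstream, chr2L:11453056-11453156: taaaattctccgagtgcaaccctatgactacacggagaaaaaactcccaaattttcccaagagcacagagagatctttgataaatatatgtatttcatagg
sd intron 3, less strict, chrX:15818800-15818900: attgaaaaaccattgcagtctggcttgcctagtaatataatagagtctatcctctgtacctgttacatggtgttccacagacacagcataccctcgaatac

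The authors' conservative list was made from both replicates and holds peaks with an irreproducible discovery rate (IDR), a measure of how poorly a peak's rank repeats, of at most 0.00999. It has 3184 peaks on the assembled chromosomes, and 14 of them belonged to 6 of the 10 genes: 7 to hth, 2 each to ct and bi, and 1 each to Dll, dac and salm. No conservative peak belonged to exd, vg, sd or nub. Over all protein-coding genes, 17.4% had a conservative peak. Selector genes have large territories, here the length of the gene plus the genome for which its start sites are nearest, with a median of 41.7 kb in the 10 genes against 5.21 kb in all protein-coding genes. Of the 9 genes with a territory at least that of vg, 6 had a conservative peak, or 66.7%, against 38.1% of the 2288 genes of that size or more. Per length the difference was small: 2.58 conservative peaks per 100 kb of territory in the 10 genes and 2.31 per 100 kb of the assembled chromosomes. The 14 peaks had a median signal of 78.9, with a range of 51.4 to 185, against a median of 93.5 over all conservative peaks, whose highest was 1522.

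**Figure D1:**
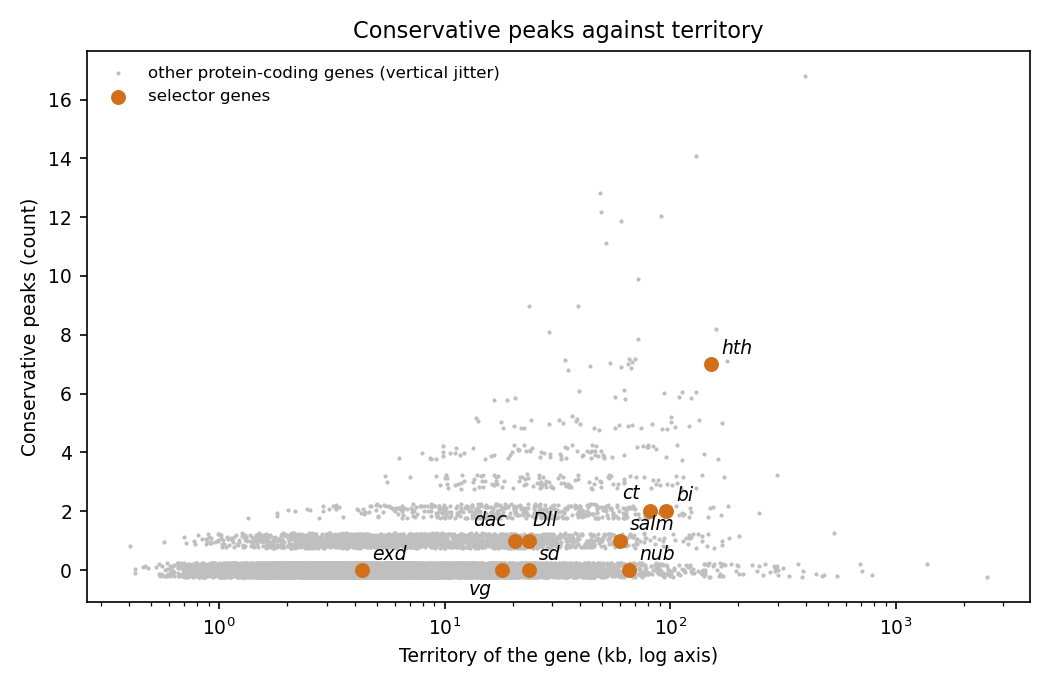
Conservative peaks (count, vertical axis) against the territory of each gene (kb, log axis) for the 10 selector genes (orange) and the other protein-coding genes (grey, moved vertically at random for display). hth, with 7 peaks over 151 kb, stands above the other selector genes, and exd, vg, sd and nub lie at 0.

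**Figure D2:**
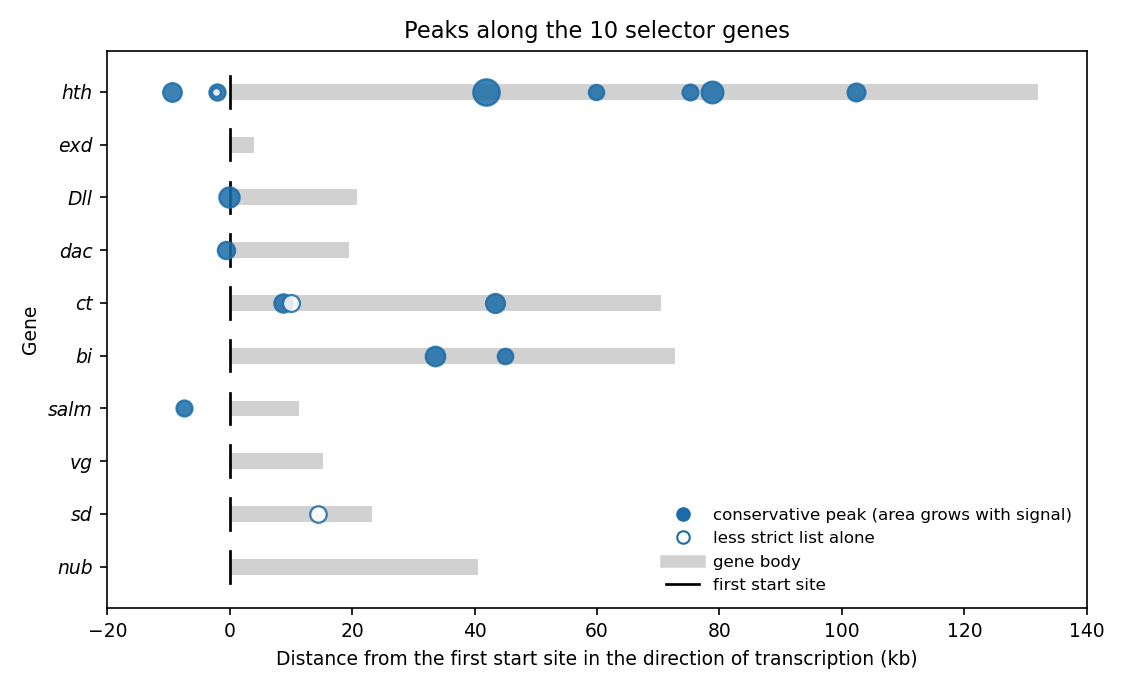
The 10 genes drawn from their first start site (black tick) in the direction of transcription, in kb, with the gene body in grey, conservative peaks as filled circles whose area grows with signal and peaks of the less strict list alone as open circles. Peaks of hth, ct and bi are spread through long introns, the peak of Dll sits at its start site, and exd, vg and nub have none.

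The gene hth had more conservative peaks than the other 9 genes had each. It lies on the minus strand of chromosome 3R from 10507561 to 10639568 (FBgn0001235), and its 7 conservative peaks span 112 kb. Only 13 protein-coding genes had more conservative peaks, and 25 had 7 or more, hth included. Its density was 4.64 peaks per 100 kb of territory, between the 4.86 of dac and the 4.24 of Dll, which rest on 1 peak each. Gaps between neighbouring summits ran from 3.65 to 43.8 kb. Of the 7, 5 were in introns of hth and 2 upstream of it.

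The strongest hth peak spanned 10597708 to 10597795 on 3R, in intron 3 of 13 (introns are numbered in the transcript with the most exons among those with an intron at the summit), 41801 bp into the gene from its first start site. The signal of 185 in the pool ranked it at 532 among the 3184 peaks. Replicate 1 had 105 and replicate 2 had 76.4 there (mean 90.8 ± 20.4, SD, n = 2), and both replicates' own thresholded lists held the site. The second, 10560615 to 10560910 in intron 7, had a pooled signal of 121, with 69.0 and 63.5 in replicates 1 and 2 (66.2 ± 3.94, SD, n = 2), and it too was in both thresholded lists. These were the highest values of any selector gene site in both replicates. The start site of mir-4944 was nearer than that of hth to the intron 7 summit, at 47630 against 53513 bp. It was also nearer to the summit of a weaker hth peak in intron 8, at 24171 against 76972 bp.

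The other 5 hth peaks were weaker, with pooled signals of 51.4 to 84.5, and no thresholded peak of replicate 1 overlapped them. The peak 9390 bp upstream of the first start site (10648810 to 10649105) had a pooled signal of 84.5 and differed most between replicates, with 30.8 in replicate 1 and 58.0 in replicate 2. Its IDR in replicate 2's ranked list was 0.0238, above the threshold, although its signal there exceeded that of several sites that passed. The peak in intron 8 (10537156 to 10537451, pooled signal 76.4) had 33.7 and 41.4 in replicates 1 and 2, and replicate 2 alone thresholded it. The peak 2012 bp upstream (10641432 to 10641727, pooled signal 60.1) had 40.7 and 24.9, and it too was thresholded by replicate 2 alone, the replicate with the lower signal. It lies in an exon of the noncoding gene asRNA:CR44018. Intron 6, which is 23710 bp long, held the remaining pair, with pooled signals of 57.0 and 51.4 and replicate signals between 25.8 and 32.6.

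The partner of hth, exd, had no listed peak of any kind. It lies on the plus strand of X from 15992468 to 15996509 (FBgn0000611), a short gene with a territory of 4.29 kb. Neither replicate's ranked list, which also holds weak candidate peaks, had a summit in that territory, and neither did the pooled ranked lists. Of the 4147 protein-coding genes with a territory within 1.5 times that of exd, 130 likewise had no candidate in either replicate, or 3.13%. The empty stretch ran past the gene. In replicate 1 the stretch without a candidate summit ran from 15991684 to 16011624, 19.9 kb in all. In replicate 2 it ran from 15983401 to 16011187, 27.8 kb in all. Gaps at least that long between neighbouring summits numbered 300 of 82639 in replicate 1 and 146 of 102843 in replicate 2, over all assembled chromosomes. Whether the absence belongs to exd itself or to the region cannot be told apart. Binding weaker than the lowest candidate signal, 2.00 in both replicates, would not be listed. A ranked list can also lack a stronger peak. The pooled ranked list behind the less strict list held an sd peak with a signal of 63.6, while the other pooled ranked list held no candidate of sd.

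Among the limb genes, Dll had 1 conservative peak and it was at the promoter. The gene lies on the plus strand of 2R from 24814822 to 24835667 (FBgn0000157), and the peak, 24814587 to 24814882, has its summit 87 bp upstream of the only annotated start site. Its pooled signal was 103, with 58.1 in replicate 1 and 45.4 in replicate 2 (51.7 ± 8.96, SD, n = 2), and both replicates thresholded it. The GC content within 50 bp of this summit was 68.3%, the highest among the selector gene peaks. With the 2 strongest hth peaks it completes the 3 sites that passed in both replicates.

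For dac, on the minus strand of 2L from 16466512 to 16485998 (FBgn0005677), the 1 conservative peak (16486392 to 16486687) lay next to the gene, its summit 542 bp before the start site. The pooled signal was 70.9, and the replicates had 41.6 and 27.3 (34.4 ± 10.1, SD, n = 2). Neither replicate thresholded it: the IDR of the overlapping candidate was 0.443 in replicate 1's ranked list and 0.850 in replicate 2's, against 0.00319 in the pooled ranked list behind the conservative one.

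The wing margin gene ct, on the plus strand of X from 7608428 to 7678859 (FBgn0004198), had conservative peaks in 2 of its introns. The peak 7651633 to 7651928 in intron 3 had a pooled signal of 88.5, with 31.7 in replicate 1 and 49.9 in replicate 2 (40.8 ± 12.9, SD, n = 2). The peak 7617004 to 7617299 in the first intron, which is 36241 bp long, had a pooled signal of 81.3, with 34.2 and 44.1 (39.2 ± 7.0, SD, n = 2). A further site in the first intron, 7618252 to 7618547, was in the less strict list alone: its pooled signal was 67.2, with 18.8 in replicate 1 and 46.5 in replicate 2. Replicate 2 was higher at all 3 ct sites and thresholded all 3, and replicate 1 thresholded none.

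The Dpp-responsive genes bi and salm had intronic and upstream peaks. In bi, on the plus strand of X from 4412856 to 4485647 (FBgn0000179), the stronger peak (4446160 to 4446455, intron 2) had a pooled signal of 94.3 and replicate signals of 30.8 and 59.6 (45.2 ± 20.4, SD, n = 2). Its log2 ratio of replicate 2 to replicate 1, 0.95, was the largest difference among the 14 peaks, and only replicate 2 thresholded it. The second bi peak (4457736 to 4458031, intron 4) had a pooled signal of 53.7 and nearly equal replicate signals, 26.4 and 27.6. Both bi sites also lie within the noncoding gene lncRNA:CR32773. The salm peak (2L, 11452958 to 11453253) lay 7492 bp upstream of the start site of salm, a minus-strand gene from 11434311 to 11445614 (FBgn0261648), inside the noncoding gene lncRNA:CR46454. It had a pooled signal of 58.2, with 26.3 in replicate 1 and 36.1 in replicate 2 (31.2 ± 6.92, SD, n = 2), and no thresholded peak of either replicate overlapped it. The start site of lncRNA:CR46454 was nearer to that summit, at 5039 bp.

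**Figure D3:**
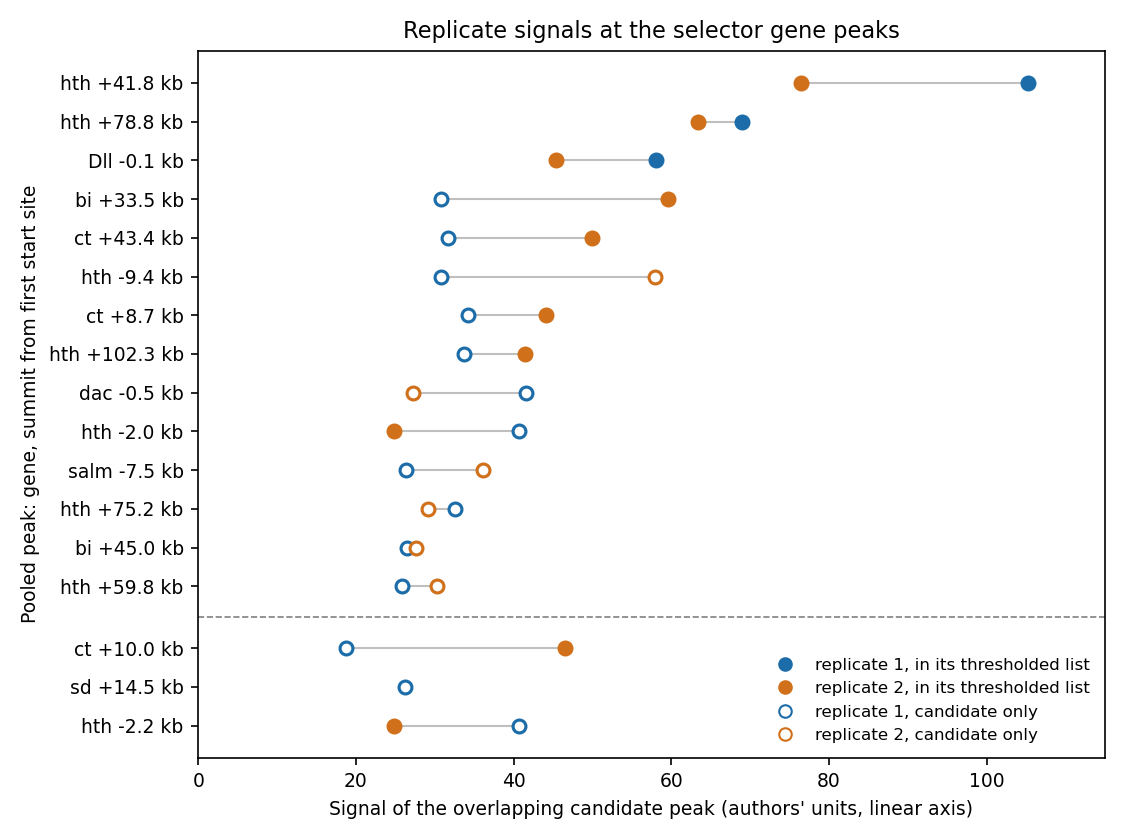
Signal of the overlapping candidate peak in replicate 1 (blue) and replicate 2 (orange), in the authors' units, at each conservative peak (above the dashed line) and each less strict peak outside the conservative list (below it), named by gene and distance of the summit from the first start site. Filled points are in that replicate's own thresholded list: both points are filled at 3 sites, which are the 2 strongest of hth and the Dll promoter, and sd has no point for replicate 2.

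The wing pair vg and sd and the wing blade gene nub had no conservative peak. Pooled candidates are those of the pooled ranked list that holds every conservative peak. For vg, on the plus strand of 2R from 12884201 to 12899385 (FBgn0003975), the strongest pooled candidate had a signal of 40.0 and an IDR of 0.295, with 15.9 in replicate 1 and 23.1 in replicate 2 (19.5 ± 5.10, SD, n = 2). For nub, on the plus strand of 2L from 12587625 to 12628135 (FBgn0085424), it had 54.9 and an IDR of 0.0202, with 28.8 and 21.8 (25.3 ± 4.96, SD, n = 2), and its summit at 12569171 lay 18454 bp from the nearest nub start site. That pooled signal is above those of the weakest selector gene peaks in the conservative list, 53.7 at bi and 51.4 at hth. For vg the whole set was 9 candidates in replicate 1 and 11 in replicate 2.

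The gene sd had candidates in 1 replicate only. It lies on the plus strand of X from 15804370 to 15827682 (FBgn0003345), and replicate 1 had 12 candidate peaks there, the strongest with a signal of 26.3, while replicate 2 had none. Among the 1668 protein-coding genes with a territory at least that of sd, 23.6 kb, 20 had no candidate in replicate 2, or 1.20%, and 12 had none in replicate 1, or 0.719%. The less strict list held 1 sd peak, 15818702 to 15818997 in intron 3, with a pooled signal of 63.6 and an IDR of 0.00546 in the second pooled ranked list, the one that holds the less strict peaks. Its summit was 699 bp from the nearest of the gene's annotated start sites. That pooled signal is above those of 5 of the 14 conservative selector gene peaks. With nothing in replicate 2 to overlap it, this site has no replicate check. The stretch without candidates in replicate 2 was 39.0 kb long and ran past both ends of sd. Of replicate 2's 102843 gaps over the assembled chromosomes, 79 were of that length or more. The genes sd and exd lie near each other on X. From the start of sd to the end of exd, 192 kb, replicate 2 had 45 candidates, or 0.234 per kb, against 0.721 per kb of X, and replicate 1 had 96, or 0.50 per kb, against 0.560 per kb of X. The part of this sparse region in the missing candidates of both genes was not tested.

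**Figure D4:**
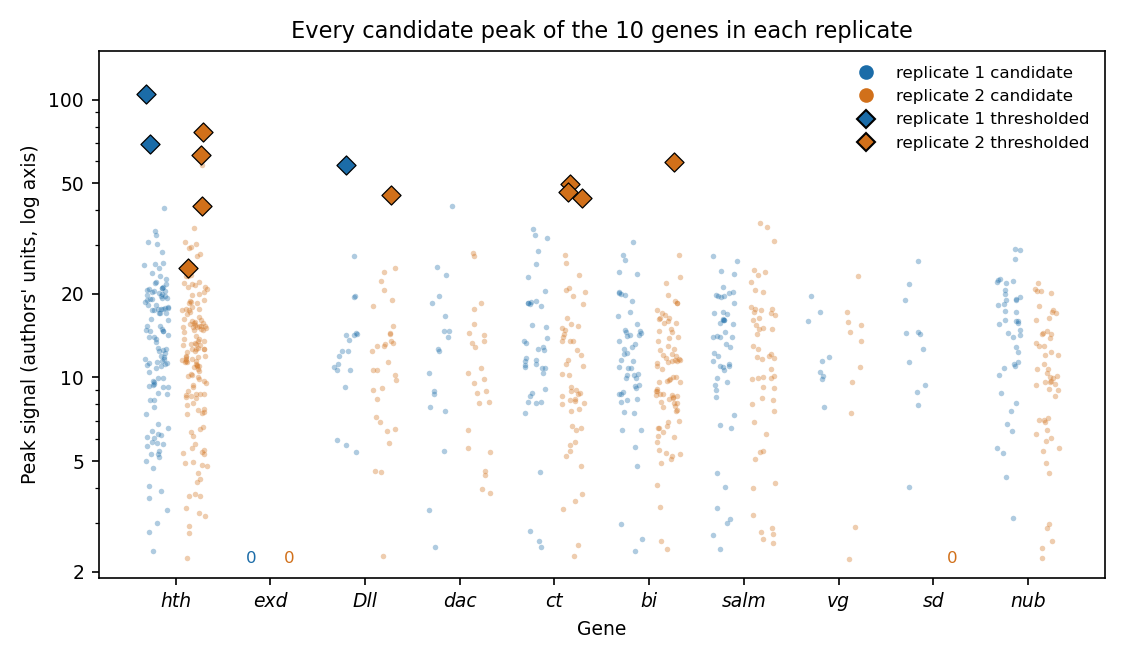
Signal (authors' units, log axis) of every candidate peak of the 10 genes in replicate 1 (blue) and replicate 2 (orange), with the peaks of each replicate's thresholded list as diamonds and 0 where a replicate lists none. Most candidates lie between 5 and 30, and diamonds are seen at hth and Dll in both replicates and at ct and bi in replicate 2 alone.

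Candidate peaks of the 10 genes, most of them below the threshold, were close to those of the genome in density and signal. Replicate 1 listed 370 candidate peaks in them and replicate 2 listed 458, which is 0.681 and 0.843 per kb of territory, against 0.601 and 0.748 per kb over the assembled chromosomes. The median candidate signal was 13.1 in replicate 1 and 11.4 in replicate 2 for the 10 genes, against 13.3 and 11.3 over all candidates. Of replicate 1's candidates in these genes, 61.9% overlapped a candidate of replicate 2 by at least 1 bp, against 60.0% of all its candidates. In the other direction it was 48.3%, against 48.1%. None of these differences was tested.

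The replicates' own thresholded lists were unlike each other at the selector genes. Replicate 1's list held 3 peaks in 2 genes, hth and Dll, with signals of 105, 69.0 and 58.1. Replicate 2's held 9 in 4 genes, with 4 peaks at hth, 3 at ct and 1 each at bi and Dll, and signals of 24.9 to 76.4. Over all protein-coding genes the shares with a peak were 12.2% in replicate 1's list and 13.5% in replicate 2's, so over the genome the 2 lists were closer in size. Of the 14 conservative peaks, 3 (21.4%) overlapped a thresholded peak of replicate 1, against 57.0% of all conservative peaks, and 8 (57.1%) overlapped one of replicate 2, against 63.2%. Among all conservative peaks in the same range of signal, 51.4 to 185, the shares were 50.4% and 57.8%. Both replicates thresholded 3 of the 14, against 48.1% of all conservative peaks, and neither thresholded 6 of the 14, against 27.9%. Of the 2515 conservative peaks in that range of signal, both replicates thresholded 992 and neither thresholded 787. The 14 peaks come from 6 genes, 7 of them at hth, and no test was made of these differences.

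In signal itself the replicates lay close at these peaks. They come from a list limited by IDR, so the closeness is not free of that selection. The log2 ratio of replicate 2 to replicate 1 had a median of 0.15 over the 14 peaks, with a range of -0.71 to 0.95 and an SD of 0.54, and 8 of the 14 were higher in replicate 2. Over all conservative peaks with a candidate in both replicates, the median was 0.03 with an SD of 0.43. The 7 peaks of hth had a median of -0.12 and the 7 of the other genes 0.37. Each of the 14 was within 2-fold between replicates, as were 97.7% of the 3134 conservative peaks compared.

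The summits of the selector genes lay mostly in introns. Of the 14, 10 were intronic (71.4%, exact binomial 95% interval 41.9 to 91.6), against 39.6% of all conservative summits. The Dll summit was the only one within 500 bp of a start site, 7.14% (0.181 to 33.9), against 42.3% of all. Of the 10, 9 were in introns of hth, ct and bi and 1 in the noncoding gene near salm. The intervals cover counting error only and treat the peaks as independent although 7 share 1 gene, and the difference was not tested. Of the 5 intronic summits of hth, none was within 1000 bp of an exon of the transcript used for numbering, and the nearest such exon was 1146 bp away. Peaks of the list were wide, 296 bp at 13 of the 14 sites, so a summit is not resolved to single bases: the replicate candidates' own summits lay 0 to 102 bp from the pooled ones.

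**Figure D5:**
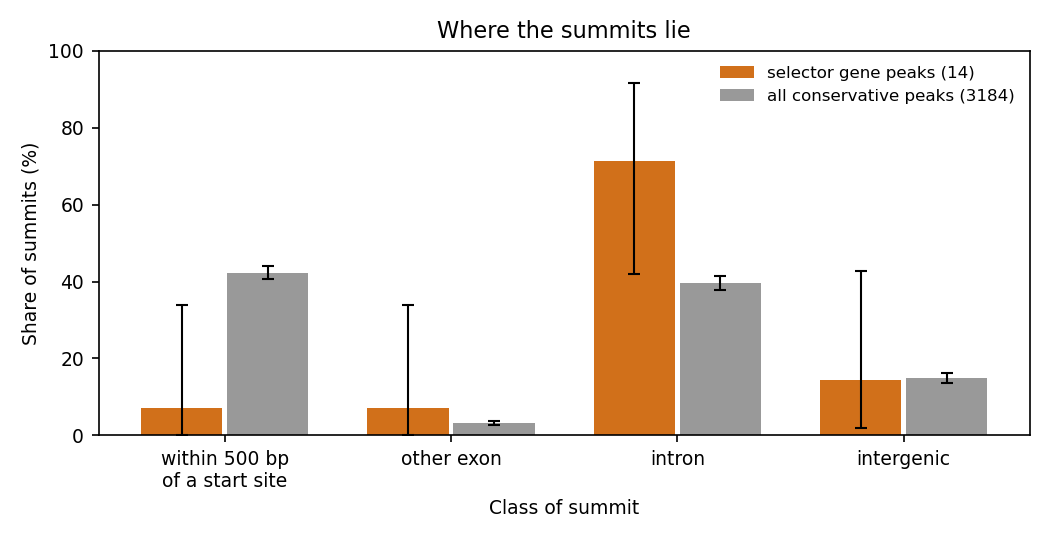
Share of conservative summits (%) within 500 bp of a start site, in another exon, in an intron and in intergenic sequence, for the 14 selector gene peaks (orange) and all 3184 conservative peaks (grey), with exact binomial 95% intervals as error bars. Introns hold 71.4% of the selector gene summits and 39.6% of all, and the start site class holds 7.14% and 42.3%.

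The motifs searched lay at few of the selector gene summits, as at few of all summits. Within 50 bp of the summit, TAATTA lay at 0 of the 14 conservative peaks, against 362 of 3184 (11.4%) over all, and at 1 of the 14 windows 1000 bp to the right and 1 of those to the left. Over all conservative peaks, TAATTA lay at 5.72% of the windows to the right and 6.69% of those to the left. It lay within 100 bp at 2 of the 14, the stronger bi peak and the hth peak 2012 bp upstream. The less strict hth peak that overlaps the latter, with a pooled signal of 7.09, had TAATTA 14 bp after its own summit and TAATTG, a related homeodomain site, 22 bp after it. Among the conservative peaks, TAATTG lay at 2 of 14 (14.3%), both at hth, against 11.6% of all.

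Motifs of the selector factors themselves were each found once or not at all. The strongest hth peak held TGATTNAT, the type bound by Exd with Hox proteins, its first base on the plus strand 19 bp before the summit, a match found at 3.55% of all conservative summits. The hth peak 2012 bp upstream held TGACAG, the Meis type of Hth itself, found at 2.73% of all. The dac window held the POU octamer ATGCAAAT, the type bound by Nub, 10 bp before its summit (1.76% of all), and the weaker bi window held the T-box type AGGTGT, the family of bi (2.83% of all). The Sd type GGAATG was at none of the 14, against 2.86% of all, and at the less strict ct peak it began 3 bp after the summit. The DRE sequence TATCGATA (0.974% of all), the Zelda site CAGGTAG (0.377%) and the GAGA repeat GAGAGAG (0.754%) were at none of the 14. Away from the summits these motifs were as frequent or more so in some windows: 1000 bp to the right, TGATTNAT lay at 2 of 14 and TGACAG at 1, and 1000 bp to the left, TGACAG lay at 2 and AGGTGT at 2. ATGCAAAT lay at none of the windows to either side. A match describes the letters and is not a site shown to be bound by that factor. The GC content of the 14 windows averaged 38.7% ± 11.9 (SD, n = 14 windows), against 33.0% ± 9.89 over all conservative summits, with 24.8% at the strongest hth peak.

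Other genes of wing, leg and antenna patterning were counted from a list of 61 entries, of which 60 had a match in the annotation. Of the 60, 29 had a conservative peak (48.3%), against 17.4% of all protein-coding genes, and their 56 peaks came to 2.38 per 100 kb of territory, near the 2.31 of the assembled chromosomes. No peak was counted for both this list and the 10 selector genes. The strongest were at bowl, a zinc finger gene of leg joints (376), noc, a zinc finger gene (275), ptc, the Hedgehog receptor gene (242), N, the Notch receptor gene (238), dpp, the BMP ligand gene (189) and Doc2, a T-box gene (181), each in both replicates' thresholded lists. All 6 but Doc2 exceeded the highest selector gene signal, 185 at hth. Of the 56 summits, 5 were within 500 bp of a start site (8.93%, exact binomial 95% interval 2.96 to 19.6), 22 were in introns and 27 intergenic. Both replicates thresholded 20 of the 56, and neither did 21. The 31 genes of this list without a conservative peak included the paralogs salr of salm and pdm2 of nub, and the selector partners Chi and tgo. Chi and tgo have territories of 2.42 and 10.1 kb.

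The list called less strict here has 3289 peaks on the assembled chromosomes and, like the conservative list, holds scores of at least 830. In it, 7 of the 10 genes had a peak, with sd added, against 18.1% of all protein-coding genes. It held 15 selector gene peaks, 12 of which were also in the conservative list. The 2 conservative peaks that it lacked were the weakest of bi and of hth, whose IDR in the second pooled ranked list was 0.602 and 0.0378.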

How the data were processed

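ChIP-seq peak lists of 2 replicates, which the labels call biological, were used as deposited, on dm6. The sources used here do not name the aligner or the program that called peaks. The deposited signal of column 7 was the peak strength used throughout, and the authors' unit for it is not named. The deposited score of column 5 is the IDR score of the authors' lists, and thresholded lists hold scores of at least 830. The deposited −log10 column of the IDR lists gave the IDR values. No read totals were given, so depth is unknown and no count test could be made. Per the file headers, the conservative and the less strict list were both made from the alignments of both replicates, and how they differ is not stated; each is contained in its own pooled ranked list.

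The 17 conservative peaks on unplaced scaffolds were left out. Summits were assigned to protein-coding genes of Ensembl release 115 in Python 3.11.15 (pandas 2.3.3, numpy 2.4.6; intervals from scipy 1.17.1; figures from matplotlib 3.10.9). A peak belonged to a gene when its summit lay inside it or that gene's start site was nearest. Lists were compared by overlaps of at least 1 bp. Motifs were searched on both strands within 50 bp of each summit and 1000 bp to either side. Assignment and overlap were tested on simulated data. All 10 genes were named, and of the other appendage genes the 6 with the strongest conservative peak; Chi, tgo, salr and pdm2 were named after their values were seen. The genes, lists and motifs were chosen with earlier results of these data known. Comparisons with all peaks are descriptions with no test. One entry of the appendage list was not analysed here. Alternatives were the less strict list, each replicate's own list, the stronger peaks, other assignment rules, overlap rules, start site windows and motif windows.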

Additional observations from a re-analysis of the deposited data

How the results depend on the processing

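Of the 10 selector genes, 6 had a conservative peak, and the count from 1 replicate's own thresholded list ranged from 2, without replicate 2, to 4, without replicate 1. The count of selector gene peaks, 14 in the conservative list, likewise ranged from 3, without replicate 2, to 9, without replicate 1. Both counts thus rest on combining the replicates. The 9 include a ct peak outside the conservative list, and 8 of the 14 overlapped a thresholded peak of replicate 2. Among the conservative peaks above the median signal of their list, 3 genes, 4 peaks and 16 of the 60 other appendage genes were left, against 6, 14 and 29. With summits inside the gene only, these were 3 genes, 9 peaks and 16 other appendage genes. Taking the nearest start site among all genes, with summits inside a gene still counted for it, gave 5 genes, 13 peaks and 23 other appendage genes. These settings lowered the count of other appendage genes too, and the shares of all protein-coding genes under them are not given here. The less strict list gave 7 genes, 15 peaks and 30 other appendage genes. Summits within 1000 bp of a start site numbered 2, in place of 1 within 500 bp, the dac summit being added. TAATTA was found at 0 of 14 summits within 50 bp, at 2 within 100 bp and at 1 of 15 in the less strict list. The median log2 ratio of replicate 2 to replicate 1 was -0.36 over the 3 peaks thresholded in both replicates, against 0.15 over all 14, a change of sign smaller than the SD between peaks. The 3 peaks thresholded in both replicates stayed at 3 under both overlap rules. No paired analysis was possible because there was only 1 group. The depth is unknown, so a missing peak cannot be set against the reads behind it.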
